A study of Mus musculus with 24 samples.

Results

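The SLC25 genes encode the mitochondrial carrier family, membrane proteins that move metabolites, nucleotides, cofactors and iron across the inner mitochondrial membrane. Members were the probes whose gene name on the KBrO3 arrays was Slc25a followed by a number, and the same probes were read on the BPA arrays. This gave 53 probes of 32 genes among 41174 probes and 27962 gene names on the array, and each gene was represented by its brightest probe. The signals were measured with Agilent one-colour whole mouse genome arrays on total RNA of immortalized Ku70-/- mouse embryonic fibroblasts (MEFs). Every group, the untreated controls included, lacked Ku70 (gene symbol Xrcc6), a protein of the non-homologous end joining pathway of double-strand break repair, and no cells with Ku70 were analysed here. In the KBrO3 set, 3 arrays each were run for untreated cells (labelled 4 hr), for cells at 4 hr and at 24 hr after the start of a 1-hr exposure to 20 mM KBrO3 (potassium bromate, an oxidizing agent), and for co-exposed cells at 4 hr and at 24 hr that also received 150 μM bisphenol A (BPA, a monomer of plastics with estrogenic activity) before, during and after the bromate. In the BPA set, 3 arrays each were run for untreated cells, with no time in the label, and for cells given 150 μM BPA alone for 4 hr and 24 hr; the methods give BPA exposures that are 1 hr longer. No untreated array analysed here carried a 24-hr label in the KBrO3 set, so the time in culture is confounded with exposure there.

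Mitochondrial carriers share a fold of repeated membrane-spanning segments, and most of them exchange one substrate for another. The adenine nucleotide carriers exchange ADP for ATP and, with the phosphate carrier, supply oxidative phosphorylation. Other carriers feed the citric acid cycle and the malate-aspartate shuttle, import flavin, S-adenosylmethionine and glutathione, or bring in iron for heme and iron-sulfur cluster synthesis. Fibroblasts use most of these routes, whereas a few carriers are known mainly from testis, brain or muscle.

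Levels are given as log2 signal minus the 75th percentile of the array, so a difference of 1 is a doubling, and levels of different genes are not comparable because each probe binds with its own strength. A gene was called where the Bonferroni-adjusted p over all probes tested was below 0.01 and the difference was beyond 1.5-fold, which are the thresholds of the methods. In the KBrO3 set 30 of the 32 genes were tested, and 26 of those were well above background on all 15 arrays. The exceptions were Slc25a18, a glutamate carrier, and Slc25a21, the oxoadipate carrier, which in that set had no group in which every array was well above background. In the BPA set 31 genes were tested, without Slc25a21. The share of spots well above background was 57.7% to 68.1% in the KBrO3 set and 76.4% to 79.4% in the BPA set, and the median residual SD over probes was 0.107 and 0.341. No spot of a member was saturated. The number of arrays limits the precision, and the arrays of a group are biological replicates according to the methods. Xrcc6, the deleted gene, was well above background on every array, at 0.10 ± 0.1 (SD, n = 3) in untreated cells of the KBrO3 set and -0.072 ± 0.256 (SD, n = 3) in those of the BPA set. Its mean level was -0.58 ± 0.0341 and -0.55 ± 0.0503 (SD, n = 3 each) at 4 hr after KBrO3 and in co-exposed cells, 0.37 ± 0.0266 and 0.51 ± 0.0559 at 24 hr, and -0.35 ± 0.186 and 0.33 ± 0.356 after 4 and 24 hr of BPA. Whether its probe lies within the deleted sequence is not given in the sources used here, so this does not check the genotype. All 11 fibroblast markers were well above background on every array of the BPA set, and 10 were on every array of the KBrO3 set. Markers of other cell types were also detected: in the KBrO3 set 4 of 6 leukocyte, 3 of 6 epithelial, 1 of 5 endothelial, 1 of 7 muscle and 1 of 5 adipocyte markers were well above background on every array, and in the BPA set 4, 3, 2, 5 and 3 were. Ptprc (leukocyte), Pecam1 and Tie1 (endothelial), Des (muscle) and Lep (adipocyte) were well above background on no array of either set, and in the KBrO3 set Cdh5 (endothelial), Cdh1 and Cldn4 (epithelial), Ckm and Myog (muscle) and Plin1 (adipocyte) were not either. Fewer cells of a type and less RNA per cell cannot be told apart in these bulk samples.

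At 4 hr after KBrO3 alone, 13 of 30 SLC25 genes were called against untreated cells, 7 higher and 6 lower, where 29.3% of all 18436 genes tested were called, 13.8% higher and 15.5% lower. In co-exposed cells at 4 hr, 14 of 30 were called, 6 higher and 8 lower, against 33.3% of all genes, 15.3% higher and 18% lower. Both lists held 12 genes, and both comparisons share the same untreated arrays. The share of all genes called in both was not computed. Slc25a25, Slc25a32, Slc25a5, Slc25a37, Slc25a29 and Slc25a30 were higher in both, and those lower in both included Slc25a35, Slc25a27, Slc25a14, Slc25a24 and Slc25a12. Slc25a3 was called in cells given KBrO3 alone, and Slc25a4 and Slc25a11 in co-exposed cells. The members were defined by name but put forward with these contrasts in view, so for every comparison with untreated cells, BPA alone included, the calls and counts describe the members and support nothing further. The median log2 difference over the members was 0.083 at 4 hr after KBrO3 (0.046 over all genes tested) and 0.038 in co-exposed cells (0.050 over all genes tested). Higher and lower members were thus mixed within the family, and its centre lay close to 0 in both comparisons.

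At 24 hr, 2 of 30 members were called against untreated cells after KBrO3 alone, both higher, against 17.8% of all genes, 7.09% higher and 10.7% lower. In co-exposed cells at 24 hr, 3 of 30 were called, all higher, against 21.5% of all genes, 9.49% higher and 12% lower. After KBrO3 alone the genes were Slc25a25 and Slc25a5, and in co-exposed cells they were Slc25a25, Slc25a26 and Slc25a37. These co-exposed arrays shared no slide with untreated arrays, and with slide as a random block (estimated correlation 0.634) 0 of the 3 calls remained, at a limma Bonferroni-adjusted p of 0.0152 for Slc25a25, 0.0437 for Slc25a26 and 0.564 for Slc25a37. Each of the 13 members called at 4 hr after KBrO3, and each of the 14 in co-exposed cells, had a smaller difference from the untreated arrays at 24 hr than at 4 hr, as had 89.5% and 86.3% of all genes called at 4 hr. With Benjamini-Hochberg adjustment at 0.05 and the same fold limit, 17, 6, 17 and 8 members were called after KBrO3 at 4 and 24 hr and in co-exposed cells at 4 and 24 hr. The shares of all genes under that rule were 44.3%, 33.2%, 54.5% and 39.6%. With normexp background correction of the raw spot signals, 4, 1, 4 and 0 members were called in the same order. The shares of all genes under that correction were not computed, so whether the fall in calls is particular to the members is not known. The summed level of the 11 fibroblast markers was 1450 in untreated cells, 1330 and 1130 at 4 hr after KBrO3 and in co-exposed cells, and 541 and 427 at 24 hr, in multiples of the array's 75th percentile. The adipocyte list summed to 46.4 in untreated cells, 51.2 (KBrO3) and 35.5 (co-exposed) at 4 hr, and 15.8 and 12.8 at 24 hr, and the muscle list to 0.773, then 0.762 and 0.899, then 0.275 and 0.125. The sums of the other lists ranged over the 5 groups from 2.05 to 2.8 (leukocyte), 0.101 to 0.188 (endothelial) and 0.184 to 0.329 (epithelial). Such a sum is weighted toward its brightest probes, and 1 of 5 adipocyte and 1 of 7 muscle markers were well above background on every array of this set. The part of these lists in the carrier differences was not tested. Without the second untreated array the count in co-exposed cells at 24 hr was 1, and without the third co-exposed array at 24 hr the count at 24 hr after KBrO3 was 4. Treated and untreated arrays did not overlap for 78.9% and 69.9% of all genes at 4 and 24 hr after KBrO3. In co-exposed cells the shares were 84.2% and 71.4%, so groups lying apart was usual in this set. Co-exposed arrays and those of KBrO3 alone lay apart for 76.4% of all genes at 4 hr and 50% at 24 hr.

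**Figure D1:**
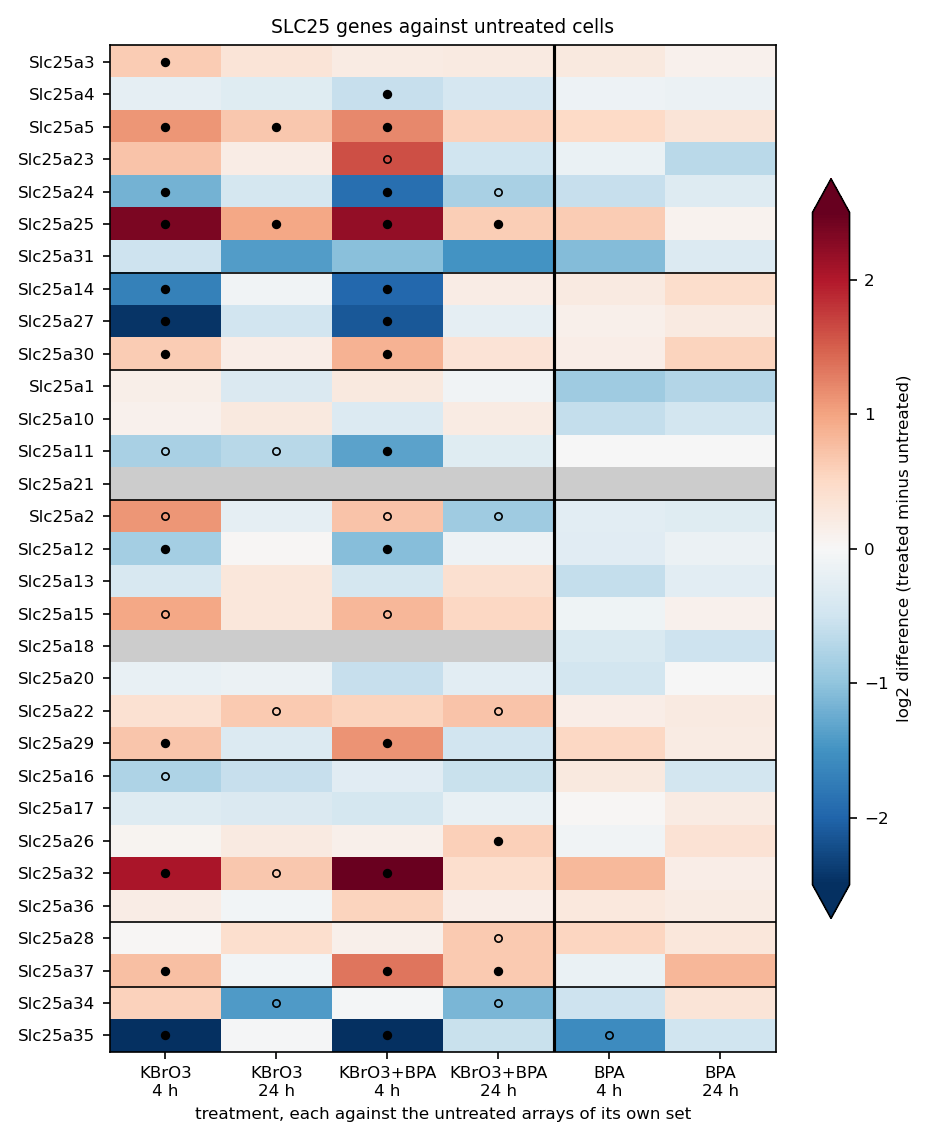
Log2 difference of 31 SLC25 genes (rows) between treated and untreated arrays of the same set (columns; the thick vertical line separates the KBrO3 set from the BPA set). Colour runs from blue (lower) to red (higher) and is clipped at the ends of its scale, grey cells were not tested, filled circles mark genes called with Bonferroni adjustment and open circles those called with Benjamini-Hochberg adjustment only; horizontal lines separate, from the top, adenine nucleotide and phosphate, uncoupling protein-like, carboxylate, amino acid, nucleotide and cofactor, iron, and unsettled carriers. Filled circles crowd the 4-hr columns of the KBrO3 set, with 12 and 13 of the genes plotted, and thin out to 2 and 3 at 24 hr.

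Promoter sequence is shown for 3 carriers that were called at 4 hr in the KBrO3 set and had a window in the RefSeq table used here, to show what lies before the start sites of genes that differed from untreated cells in opposite directions. The table (GRCm38.p6, 250 bases before to 50 after a start site) held 34 windows of 25 of the 32 members, and 9 motifs were searched on both strands. The printed stretches are the 250 bases before the start site, 5′ to 3′ on the gene's strand. Capitals mark the antioxidant response element TGACNNNGC (the site of the oxidative stress factor Nrf2) in the 5′-most Slc25a25 window at chr2:32451471-32451720 (minus strand) and in Slc25a5 at chrX:36795347-36795596 (plus strand). They mark the cAMP response element TGACGTCA in the 3′-most Slc25a25 window at chr2:32424067-32424316 (minus strand) and the E-box CACGTG in the 5′-most Slc25a14 window at chrX:48623198-48623447 (plus strand).
Slc25a25, 5′-most start: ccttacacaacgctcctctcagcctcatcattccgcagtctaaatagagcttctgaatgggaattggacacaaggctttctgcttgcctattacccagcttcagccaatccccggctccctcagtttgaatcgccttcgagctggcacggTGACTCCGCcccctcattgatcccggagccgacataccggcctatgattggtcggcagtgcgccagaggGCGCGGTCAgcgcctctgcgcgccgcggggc
Slc25a25, 3′-most start: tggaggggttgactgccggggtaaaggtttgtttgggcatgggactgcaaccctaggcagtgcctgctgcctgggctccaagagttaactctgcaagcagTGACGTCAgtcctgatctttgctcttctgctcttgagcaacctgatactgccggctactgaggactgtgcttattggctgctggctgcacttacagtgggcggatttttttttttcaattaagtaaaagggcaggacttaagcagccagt
Slc25a5: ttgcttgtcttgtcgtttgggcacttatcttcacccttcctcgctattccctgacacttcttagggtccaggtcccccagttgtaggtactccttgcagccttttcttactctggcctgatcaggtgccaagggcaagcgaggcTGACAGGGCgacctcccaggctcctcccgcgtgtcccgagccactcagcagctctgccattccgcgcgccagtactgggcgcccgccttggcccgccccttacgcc
Slc25a14: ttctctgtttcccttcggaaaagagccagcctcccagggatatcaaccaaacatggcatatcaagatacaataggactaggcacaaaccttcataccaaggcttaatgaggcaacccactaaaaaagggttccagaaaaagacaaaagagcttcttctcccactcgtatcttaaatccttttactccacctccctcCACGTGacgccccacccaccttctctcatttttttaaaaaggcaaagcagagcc
The antioxidant response element letters were in 8 of the 34 member windows and in 12.4% of all 32851 windows of that length. All 3 overlapping Slc25a14 windows held them too, from base 33 after the 5′-most start (outside the printed stretch) and from bases -97 and -193 relative to the other starts, so the letters were found before or near the starts of both higher and lower members. The cAMP response element was in 2 member windows and 1.79% of all, and the E-box in 7 member windows and 7.15% of all. The AP-1 site TGANTCA was in 2 member windows (7.81% of all), the NRF1 site (GCGCA, any letter, GCGC) in 2 (4.6%), the GABP/ETS site CCGGAAGT in 1 (3.89%), the CCAAT box CCAAT in 18 (52.9%, against 37.4% of all) and the TATA box TATAAA in 2 (13.6%). The amino acid response element TGATGNAA was in 0 of the 34 (3.97% of all). Several members had more than 1 window, the first 4 letters of the antioxidant and cAMP elements are shared, and a match describes the letters only.

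Among the adenine nucleotide and phosphate carriers, 3 of 7 members tested were called higher and 1 lower at 4 hr after KBrO3, and 2 higher and 2 lower in co-exposed cells. Slc25a25 encodes a calcium-regulated carrier that exchanges ATP-Mg for phosphate, and it had the largest positive difference in this group; its promoter windows are printed above. In untreated cells its level was 0.59, 0.60 and 0.68 on the 3 arrays, and at 4 hr after KBrO3 it was 2.96, 2.99 and 2.98. At 24 hr after KBrO3 it was 1.52, 1.58 and 1.66. Co-exposed cells had 2.78, 2.83 and 2.84 at 4 hr and 1.28, 1.25 and 1.17 at 24 hr. Every treated array lay above every untreated array, and the 24-hr arrays lay between the untreated and the 4-hr arrays in both treatments. The log2 differences from untreated cells were 2.35 and 0.96 at 4 and 24 hr after KBrO3 and 2.19 and 0.61 in co-exposed cells (SE 0.0459 each). From 4 hr to 24 hr the level fell by 1.39 after KBrO3 (limma, Bonferroni-adjusted p = 5.98e-08) and by 1.58 in co-exposed cells (adjusted p = 1.37e-08). Genes given array by array here and below were chosen for large differences from untreated cells. Their comparisons between times reuse the same treated arrays, so a return toward untreated cells is favoured and these p-values are not independent of the choice. All 3 Slc25a25 probes gave the same direction in the 4 comparisons with untreated cells, with differences of 2.27 to 2.42 at 4 hr after KBrO3.

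Slc25a24, a paralog with the same exchange activity, went the other way. Its levels were 3.06, 3.00 and 2.87 in untreated cells, 1.74, 1.84 and 1.80 at 4 hr after KBrO3 and 2.41, 2.55 and 2.63 at 24 hr. Co-exposed cells had 1.07, 1.06 and 1.15 at 4 hr and 2.21, 2.33 and 1.98 at 24 hr. The 3 co-exposed arrays at 4 hr were the lowest of the 15, and no treated array reached the untreated range. Differences from untreated cells were -1.18 ± 0.087 (SE) at 4 hr after KBrO3 and -1.88 in co-exposed cells. Between 4 hr and 24 hr the level rose by 1.08 in co-exposed cells (Bonferroni-adjusted p = 0.00136); the difference of 0.73 after KBrO3 alone met the Benjamini-Hochberg rule only (Bonferroni-adjusted p = 0.0795). A dimmer second Slc25a24 probe was also lower at 4 hr, by 1.14 after KBrO3, and stood at 0.51 at 24 hr where the brighter probe stood at -0.45. Its mean level was -3.32 in untreated cells, and at 4 hr -4.46 after KBrO3 and -4.43 in co-exposed cells. The deeper fall with co-exposure was thus seen on the brighter probe only. The third gene of this subgroup, Slc25a23, was dim and variable, with a difference of 1.61 ± 0.452 (SE) in co-exposed cells at 4 hr that met the Benjamini-Hochberg rule only.

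Slc25a5 encodes the adenine nucleotide translocator of proliferating cells. On the untreated arrays its level was 5.83, 5.85 and 5.88, at 4 hr after KBrO3 6.98, 6.95 and 6.98 and at 24 hr 6.50, 6.51 and 6.57. Co-exposed cells had 7.07, 7.05 and 7.04 at 4 hr and 6.50, 6.40 and 6.39 at 24 hr. The 5 groups were tight, and all 12 treated arrays lay above the 3 untreated ones. The differences were 1.11, 0.68, 1.20 and 0.58 in the same order (SE 0.0384). In co-exposed cells the level fell by 0.62 from 4 hr to 24 hr (Bonferroni-adjusted p = 7.62e-05), whereas the -0.44 after KBrO3 alone was within the 1.5-fold limit. Slc25a4, the translocator of heart and muscle, was lower by 0.59 ± 0.0391 (SE) in co-exposed cells at 4 hr, just past the fold limit, and by 0.22 after KBrO3 alone. Slc25a3, the phosphate carrier, was higher by 0.63 ± 0.0341 (SE) at 4 hr after KBrO3 and by 0.20 in co-exposed cells. The dimmer Slc25a3 probes gave 0.63 and 0.22 for one and 0.62 and 1.17 for the other, so 2 of the 3 probes had the smaller value in co-exposed cells. Slc25a31, a translocator known from testis, was well above background on 8 of 15 arrays, had an SE of 0.993 and was not called in any comparison.

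**Figure D2:**
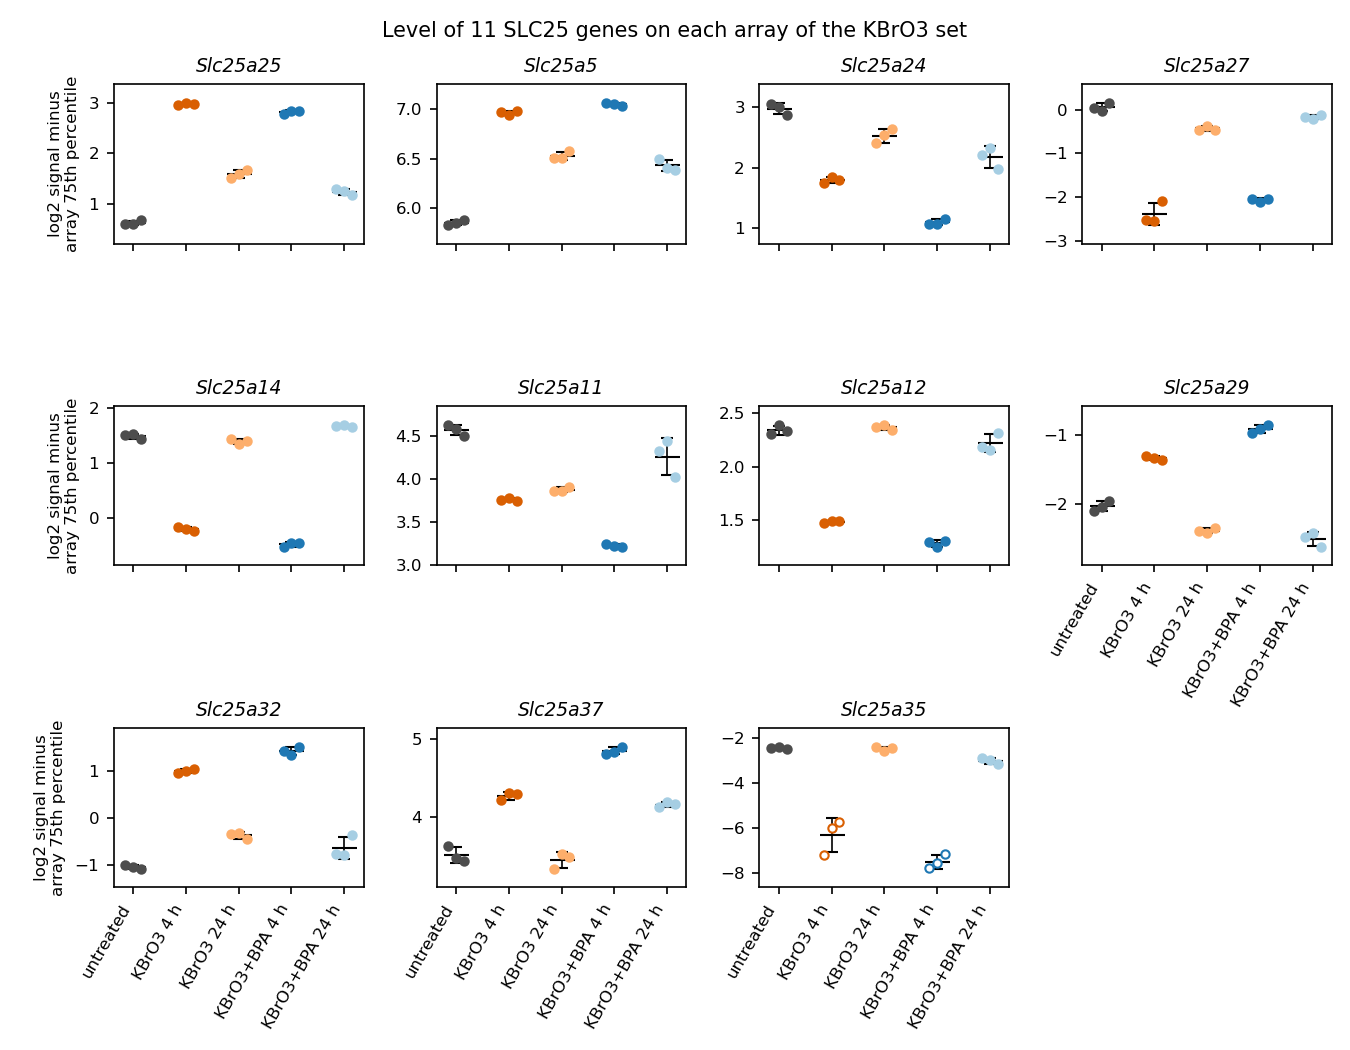
Level of 11 SLC25 genes on each array of the KBrO3 set (y axis, log2 signal minus the array's 75th percentile; each panel has its own scale), with points for the 3 arrays of a group and the mean ± SD behind them; open points mark groups that were not well above background on all 3 arrays. Slc25a25, Slc25a5, Slc25a29, Slc25a32 and Slc25a37 peak in the 4-hr groups, while Slc25a24, Slc25a27, Slc25a14, Slc25a11, Slc25a12 and Slc25a35 have their lowest means there.

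The uncoupling protein-like carriers, a branch related to the uncoupling proteins that is best known from brain and kidney, were all called at 4 hr, 1 higher and 2 lower in each treatment. Slc25a27 had levels of 0.042, -0.019 and 0.16 in untreated cells and -2.52, -2.56 and -2.09 at 4 hr after KBrO3, with -0.45, -0.36 and -0.46 at 24 hr. Co-exposed cells had -2.04, -2.12 and -2.04 at 4 hr and -0.16, -0.20 and -0.13 at 24 hr. The 6 arrays at 4 hr lay below all other arrays of the set. The differences at 4 hr were -2.45 ± 0.0999 (SE) after KBrO3 and -2.13 in co-exposed cells, and at 24 hr -0.49 and -0.22. Between 4 hr and 24 hr the level rose by 1.97 after KBrO3 (Bonferroni-adjusted p = 8.00e-06) and by 1.90 in co-exposed cells (adjusted p = 1.14e-05). The 2 other Slc25a27 probes had the same sign in the 4 comparisons with untreated cells.

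Slc25a14 behaved alike. It stood at 1.51, 1.53 and 1.44 in untreated cells, -0.16, -0.20 and -0.22 at 4 hr after KBrO3 and 1.45, 1.35 and 1.40 at 24 hr. In co-exposed cells it stood at -0.52, -0.45 and -0.44 at 4 hr and 1.68, 1.70 and 1.65 at 24 hr. At 24 hr the arrays of KBrO3 alone overlapped the untreated range, and those of co-exposed cells lay above every untreated array. Differences at 4 hr were -1.69 and -1.97 (SE 0.0409). The rise from 4 hr to 24 hr was 1.60 after KBrO3 (Bonferroni-adjusted p = 3.26e-09) and 2.15 in co-exposed cells (adjusted p = 1.03e-10). Slc25a30, the third member, was higher at 4 hr by 0.64 after KBrO3 and 0.87 in co-exposed cells (SE 0.0511), and its 2 dimmer probes had the same sign.

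Of the carboxylate and keto acid carriers, 3 members were tested, and Slc25a11 in co-exposed cells at 4 hr was the single call against untreated cells. Slc25a11 encodes the oxoglutarate carrier, which exchanges oxoglutarate for malate in the malate-aspartate shuttle. Its level was 4.62, 4.58 and 4.50 in untreated cells, 3.76, 3.78 and 3.74 at 4 hr after KBrO3 and 3.86, 3.86 and 3.91 at 24 hr. Co-exposed cells had 3.25, 3.22 and 3.21 at 4 hr and 4.32, 4.44 and 4.02 at 24 hr. The arrays of KBrO3 alone lay below the untreated ones at both times and slightly higher at 24 hr than at 4 hr, and the co-exposed cells were lower at 4 hr and closer to untreated cells at 24 hr. The change from 4 hr to 24 hr was 0.11 after KBrO3, which was not called (Bonferroni-adjusted p = 1), and a rise of 1.03 in co-exposed cells (adjusted p = 9.64e-04). The difference between these changes was 0.92 ± 0.115 (SE), with a Benjamini-Hochberg-adjusted p of 5.54e-05 and a Bonferroni-adjusted p of 0.124. Slc25a1, the citrate carrier that exports citrate for lipid synthesis, and Slc25a10, the dicarboxylate carrier, were not called in the KBrO3 set and had differences of -0.36 to 0.25 from untreated cells.

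Among the amino acid and acylcarnitine carriers, 1 of 7 tested was called higher and 1 lower at 4 hr in each treatment. Slc25a29 encodes a carrier of basic amino acids. Its level was -2.10, -2.04 and -1.96 in untreated cells, -1.30, -1.33 and -1.37 at 4 hr after KBrO3 and -2.38, -2.42 and -2.34 at 24 hr. In co-exposed cells it was -0.97, -0.91 and -0.85 at 4 hr and -2.47, -2.42 and -2.62 at 24 hr. It was thus above the untreated arrays at 4 hr and below them at 24 hr in both treatments, with differences of 0.70 and 1.12 and then -0.35 and -0.47 (SE 0.0572). The fall from 4 hr to 24 hr was by 1.05 after KBrO3 (Bonferroni-adjusted p = 1.74e-05) and by 1.59 in co-exposed cells (adjusted p = 1.54e-07).

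Slc25a12 encodes an aspartate-glutamate carrier of the malate-aspartate shuttle. Its level was 2.31, 2.39 and 2.33 in untreated cells, 1.47, 1.49 and 1.49 at 4 hr after KBrO3 and 2.37, 2.39 and 2.34 at 24 hr. With co-exposure it was 1.30, 1.25 and 1.31 and then 2.18, 2.16 and 2.31. The 4-hr arrays lay apart from all others, with differences of -0.86 and -1.06 (SE 0.0442). It rose from 4 hr to 24 hr by 0.88 after KBrO3 (Bonferroni-adjusted p = 6.87e-06) and by 0.93 in co-exposed cells (adjusted p = 3.60e-06). Its paralog Slc25a13 had differences of -0.41 and -0.45 at 4 hr, neither of them called. Slc25a2 and Slc25a15, the ornithine carriers, were higher at 4 hr after KBrO3 by 1.11 and 0.97, meeting the Benjamini-Hochberg rule only. The level of Slc25a2 fell from 4 hr to 24 hr by 1.33 after KBrO3 (Bonferroni-adjusted p = 0.00245) and by 1.60 in co-exposed cells (adjusted p = 3.38e-04). Slc25a20, the carnitine-acylcarnitine carrier that admits fatty acids to the matrix, and Slc25a22, a glutamate carrier, were not called by the Bonferroni rule in the KBrO3 set.

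Among the nucleotide and cofactor carriers, Slc25a32 was called higher at 4 hr in each treatment. Slc25a32 encodes the carrier linked to import of folate and flavin adenine dinucleotide. Its level was -1.0, -1.04 and -1.08 in untreated cells, 0.96, 1.01 and 1.05 at 4 hr after KBrO3 and -0.33, -0.30 and -0.44 at 24 hr. Its level in co-exposed cells was 1.43, 1.35 and 1.53 at 4 hr and -0.75, -0.78 and -0.36 at 24 hr. All co-exposed arrays at 4 hr lay above all arrays of KBrO3 alone, while at 24 hr 2 of 3 co-exposed arrays lay below them. Differences from untreated cells were 2.05 and 2.48 at 4 hr (SE 0.0957) and 0.68 and 0.41 at 24 hr. The fall from 4 hr to 24 hr was by 1.37 after KBrO3 (Bonferroni-adjusted p = 2.77e-04) and by 2.07 in co-exposed cells (adjusted p = 2.80e-06), and these changes differed by -0.70 ± 0.135 (SE; Benjamini-Hochberg-adjusted p = 0.00117, Bonferroni-adjusted p = 1).

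Slc25a26, which imports S-adenosylmethionine, was higher in co-exposed cells at 24 hr by 0.59 ± 0.0472 (SE), and a dimmer probe gave 1.13 there and 0.83 at 24 hr after KBrO3. Slc25a17, a peroxisomal carrier of coenzyme A and nucleotides, Slc25a36, a pyrimidine nucleotide carrier, and Slc25a16, a carrier linked to coenzyme A, were not called by the Bonferroni rule on their brightest probes; a dimmer Slc25a17 probe was called lower at 4 hr after KBrO3, at -0.66.

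The iron carriers are mitoferrins. Slc25a37, mitoferrin-1, is the form of developing red cells and is also expressed elsewhere. Its level was 3.62, 3.46 and 3.43 in untreated cells, 4.21, 4.30 and 4.29 at 4 hr after KBrO3 and 3.32, 3.52 and 3.48 at 24 hr. In co-exposed cells it was 4.81, 4.83 and 4.90 at 4 hr and 4.12, 4.18 and 4.16 at 24 hr. At 24 hr the cells given KBrO3 alone overlapped the untreated range, and the co-exposed cells did not. The level fell from 4 hr to 24 hr by 0.83 after KBrO3 (Bonferroni-adjusted p = 6.45e-04) and by 0.69 in co-exposed cells (adjusted p = 0.00417). The 3 Slc25a37 probes disagreed in size and, at 24 hr, in sign: in co-exposed cells at 24 hr the differences from untreated cells were 0.65 for the brightest probe and 1.68 and -0.69 for the others. Slc25a28, mitoferrin-2, was not called by the Bonferroni rule and reached 0.66 in co-exposed cells at 24 hr.

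Slc25a35, a carrier of unsettled substrate, had the largest negative difference of the 30 members tested. Its level was -2.45, -2.39 and -2.52 in untreated cells, -2.41, -2.57 and -2.46 at 24 hr after KBrO3 and -2.91, -2.97 and -3.17 at 24 hr in co-exposed cells. At 4 hr none of the 6 treated arrays had it well above background, with values of -7.20, -6.03 and -5.75 after KBrO3 and -7.79, -7.58 and -7.17 in co-exposed cells. The 4-hr values are therefore bounds, and the level was at least 6.15-fold lower after KBrO3 and at least 7.7-fold lower in co-exposed cells. Each bound sets the group's mean against the lowest signal well above background on the dim arrays. From 4 hr to 24 hr the level rose at least 6.03-fold after KBrO3 and at least 5.21-fold in co-exposed cells. The limma Bonferroni-adjusted p of these changes was 6.37e-04 and 1.13e-04. These p-values, and the calls of Slc25a35 at 4 hr, were computed on the signals as measured. At 4 hr those signals were not well above background, so the p-values do not apply to the bounds. A dimmer second probe had the same sign at 4 hr in both treatments and met the Benjamini-Hochberg rule only. Slc25a34, its close relative, had 0 arrays well above background at 24 hr after KBrO3 and was at least 2.12-fold lower than in untreated cells there. On the signals as measured, that difference met the Benjamini-Hochberg rule only.

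Time itself was compared within each treatment. Each of these contrasts is the difference of the comparisons with untreated cells at 24 and 4 hr, on the same treated arrays, so it is not independent of the contrasts with which the members were put forward. From 4 hr to 24 hr after KBrO3, 10 of 30 members were called, 5 higher and 5 lower, against 27.5% of all genes (12.7% higher, 14.8% lower). In co-exposed cells 13 were called, 7 higher and 6 lower, against 31.6% (15.8% higher, 15.7% lower). With Benjamini-Hochberg adjustment the counts were 14 and 16, against 48% and 57.4% of all genes. The called changes ran back toward the untreated level for 9 of the 13 members called at 4 hr after KBrO3 and for 12 of the 14 in co-exposed cells, and for 58.5% and 58.6% of all genes called at 4 hr. These counts use the same 4-hr arrays as the calls at 4 hr. Slc25a2 was called in both time comparisons without having been called against untreated cells. With slide as a random block 6 calls were left between times after KBrO3, without Slc25a2 (limma, Bonferroni-adjusted p = 0.381), Slc25a32 (adjusted p = 0.011), Slc25a35 (adjusted p = 0.65) and Slc25a37 (adjusted p = 0.0346). In co-exposed cells 12 were left, without Slc25a35 (limma, Bonferroni-adjusted p = 0.0116), and with slide as a fixed block 7 members were called, 4 higher and 3 lower. Normexp correction gave 3 and 5 calls after KBrO3 and in co-exposed cells, and a fit of the compared groups alone gave 2 and 4. The shares of all genes called in these alternative fits were not computed. Of the members, 12 had more than 1 probe tested in the KBrO3 set: 3 of them had probes of opposite sign in at least 1 of the 4 comparisons with untreated cells, 10 had probes with unlike calls, and 0 had probes called in opposite directions.

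The addition of BPA to KBrO3 was tested as co-exposed cells against cells given KBrO3 alone. This contrast is the difference of the comparisons of both groups with untreated cells, on the same treated arrays. It is therefore not independent of the contrasts with which the members were put forward. The same holds for the difference of these differences between times. At 4 hr the arrays of KBrO3 alone all lay on one slide and those of co-exposed cells on another, so slide and co-exposure cannot be told apart at 4 hr, nor in the comparison of 24 hr with 4 hr that uses these arrays. At 4 hr, 0 of 30 members were called by limma with Bonferroni adjustment, against 5.49% of all genes, while 19 had an unadjusted p below 0.05 (63.6% of all genes did). With Benjamini-Hochberg adjustment 2 were called, against 21% of all genes. Slc25a24 was lower in co-exposed cells by 0.70 ± 0.087 (SE, limma Benjamini-Hochberg-adjusted p = 3.67e-05) on its brightest probe. There every co-exposed array lay below every array of KBrO3 alone, and 76.4% of all genes lay apart in this comparison. The dimmer Slc25a24 probe had means of -4.46 after KBrO3 alone and -4.43 in co-exposed cells, with overlapping arrays. Slc25a35 differed by -1.19, but both groups were not well above background, so this value has no meaning as a fold. At 24 hr, 1 of 30 was called with Bonferroni adjustment, against 6.67% of all genes, and 2 with Benjamini-Hochberg adjustment, against 14.2%. The called gene was Slc25a37, higher in co-exposed cells by 0.71 ± 0.0623 (SE, limma Bonferroni-adjusted p = 0.00309). Its 3 co-exposed arrays lay above all arrays of KBrO3 alone, and 50% of all genes lay apart in this comparison. A dimmer Slc25a37 probe was lower by 0.76 (Benjamini-Hochberg-adjusted p = 0.00281), and the remaining probe gave 0.58. The Slc25a37 call was lost when any 1 of the 6 arrays compared was left out, with a difference of 0.66 to 0.75 and a Bonferroni-adjusted p of 0.0109 to 0.0355 in those fits. It was also lost without the second or the third array of KBrO3 alone at 4 hr or the first or the second co-exposed array at 4 hr, which enter through the shared spread, and with slide as a fixed block, median scaling, normexp correction and the compared groups fitted alone. On the slide that held 2 arrays of each of these groups, its difference was 0.65. Slc25a2 was lower in co-exposed cells at 24 hr by 0.67 ± 0.114 (SE; Benjamini-Hochberg-adjusted p = 4.64e-04). Whether the addition of BPA acted differently at 24 hr and at 4 hr was tested as the difference of these differences: 0 of 30 members were called with Bonferroni adjustment (4.48% of all genes) and 17 had an unadjusted p below 0.05, against 61.5% of all genes. With Benjamini-Hochberg adjustment the 2 genes called were Slc25a11 and Slc25a32, against 28% of all genes.

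**Figure D3:**
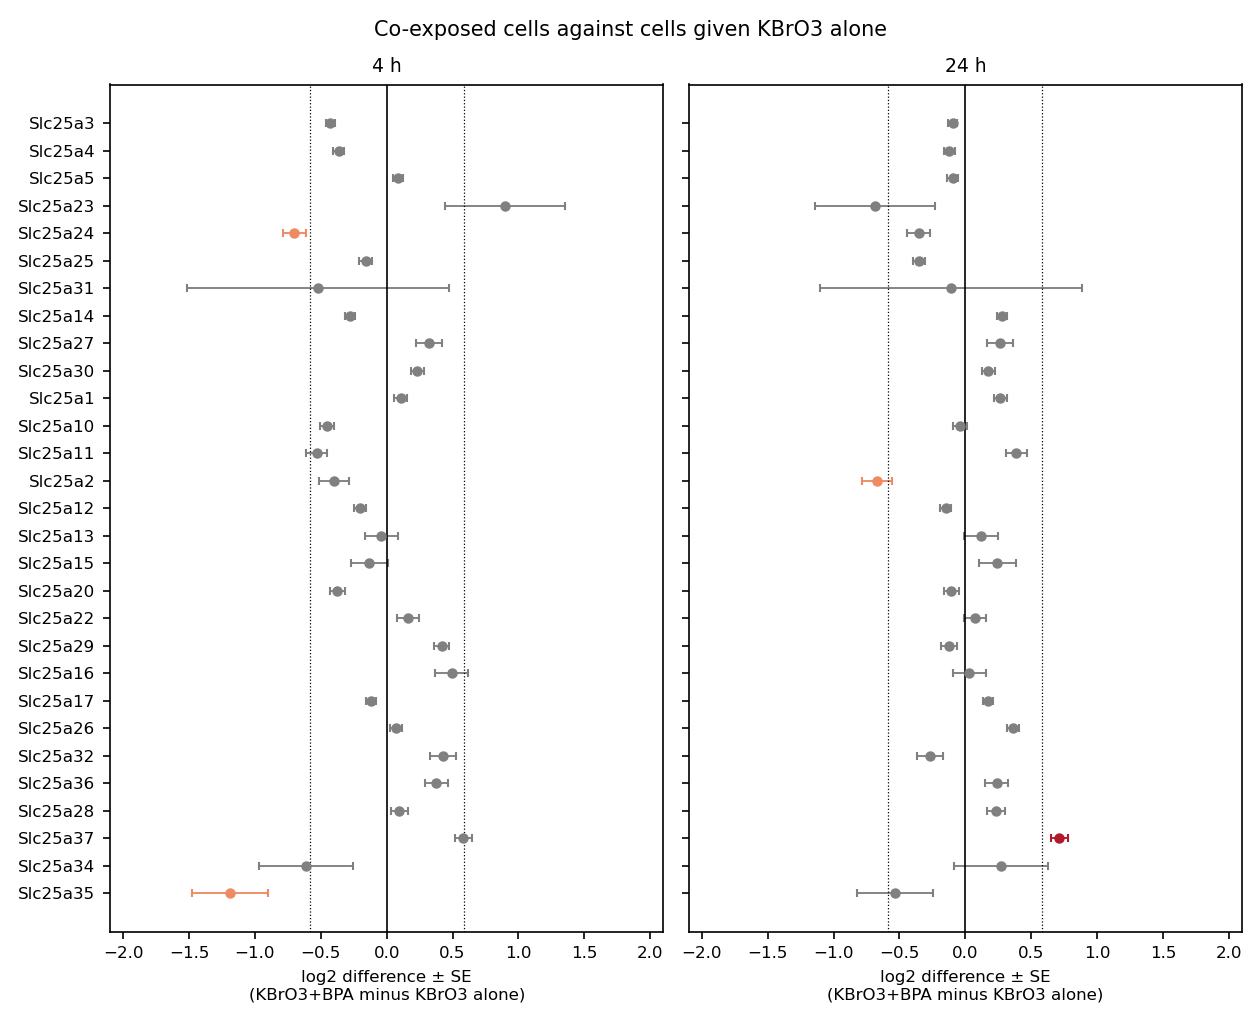
Difference between co-exposed cells and cells given KBrO3 alone for 29 of the SLC25 genes tested, at 4 hr (left) and 24 hr (right), as log2 difference ± SE (x axis), with 3 arrays in each group. Dotted lines mark the 1.5-fold limit, red marks the gene called with Bonferroni adjustment (Slc25a37 at 24 hr, 0.71), orange those called with Benjamini-Hochberg adjustment only, and most points lie within the dotted lines.

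BPA alone was compared with the untreated arrays of its own set. At both times 0 of 31 members were called by limma with Bonferroni adjustment, where 0.0886% of all 21446 genes were called at 4 hr and 0.0233% at 24 hr. At an unadjusted p below 0.05 there were 8 members at 4 hr (18.8% of all genes) and 4 at 24 hr (19.3% of all genes). Treated and untreated arrays lay apart for 26.6% of all genes at 4 hr and 22.6% at 24 hr. With Benjamini-Hochberg adjustment 1 member was called at 4 hr, against 4.22% of all genes, and 0 at 24 hr, against 3.66%. That gene was Slc25a35, with levels of -3.38, -2.52 and -3.20 in untreated cells, -4.39, -4.67 and -4.78 after 4 hr of BPA and -3.49, -3.67 and -3.45 after 24 hr. The 4-hr arrays lay below all others of the set, with a mean 1.58 ± 0.249 (SE) below that of the untreated arrays, and the level was higher at 24 hr than at 4 hr by 1.08 (Benjamini-Hochberg-adjusted p = 0.0488, Bonferroni-adjusted p = 1). Between 4 and 24 hr of BPA, 0 of 31 members were called with Bonferroni adjustment (0.042% of all genes), 1 with Benjamini-Hochberg adjustment (3.98%) and 7 had an unadjusted p below 0.05 (20.8% of all genes).

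Slc25a25 was 0.43, 0.77 and 0.52 in untreated cells, 1.33, 1.06 and 1.22 after 4 hr of BPA and 0.64, 0.70 and 0.66 after 24 hr, which at 4 hr is a difference of 0.63 ± 0.178 (SE). Its 3 arrays at 4 hr lay above the untreated ones, and a dimmer probe with 0.90 met the Benjamini-Hochberg rule, while the third probe gave -0.17 ± 0.779 (SE). Slc25a32 was -0.66, -0.029 and -0.52 in untreated cells and 0.33, 0.69 and 0.19 after 4 hr, a difference of 0.80 ± 0.229 (SE). Slc25a1, the citrate carrier, had a difference of -0.88 ± 0.264 (SE) at 4 hr and -0.74 at 24 hr, neither called. Slc25a27, among the lowest members at 4 hr after KBrO3, differed by 0.12 ± 0.225 (SE) at 4 hr of BPA, and Slc25a14 by 0.22 ± 0.241 (SE). The SE of a member had a median of 0.24 in this set, against 0.0636 in the KBrO3 set. The sets were fitted apart, and no difference between them was tested.

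**Figure D4:**
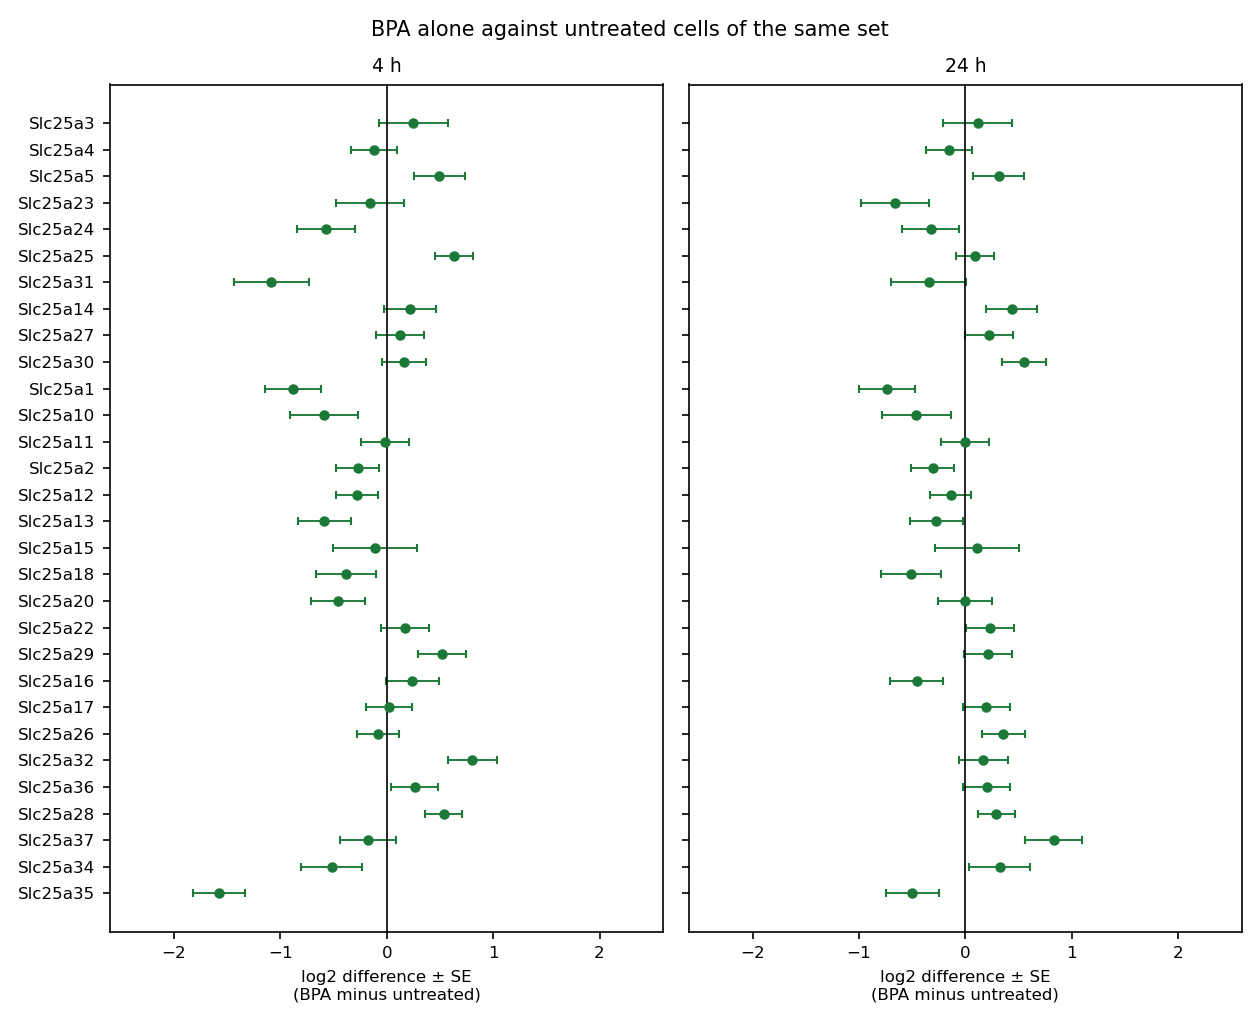
Difference between cells given BPA alone and untreated cells of the same set for 30 of the SLC25 genes tested, at 4 hr (left) and 24 hr (right), as log2 difference ± SE (x axis), from 3 arrays in each group. Slc25a35 lies farthest to the left at 4 hr, at -1.58.

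Carriers that the array lists under other names were matched through RefSeq and read as a companion list, outside the 32 members. Slc25a33, a pyrimidine nucleotide carrier, was called higher in the 4 comparisons of the KBrO3 set with untreated cells: its level was 0.60 ± 0.0521 (SD, n = 3) in untreated cells, 3.26 ± 0.0164 and 1.60 ± 0.0419 at 4 and 24 hr after KBrO3, and 3.40 ± 0.0142 and 2.58 ± 0.0842 in co-exposed cells. It was higher in co-exposed cells than after KBrO3 alone at 24 hr by 0.98 ± 0.0461 (SE; limma, Bonferroni-adjusted p = 3.31e-06), and this difference exceeded that at 4 hr by 0.84 (adjusted p = 8.92e-04). With BPA alone it was 0.37 ± 0.23 (SD, n = 3) in untreated cells, 1.42 ± 0.174 after 4 hr and 2.14 ± 0.183 after 24 hr. Slc25a47, a carrier known from liver, was higher by 1.70 at 4 hr after KBrO3 and 2.34 in co-exposed cells, and Slc25a38, the glycine carrier of heme synthesis, by 0.74 and 0.93. Slc25a41, of the adenine nucleotide and phosphate list, went the other way. It differed from untreated cells by -0.42 and -0.84 at 4 and 24 hr after KBrO3. In co-exposed cells it differed by -1.01 and -1.31, and the last was called lower. Slc25a51, the mitochondrial NAD carrier, was higher in co-exposed cells than after KBrO3 alone at 4 hr by 0.85 (Bonferroni-adjusted p = 8.33e-04). Ucp2, an uncoupling protein that also exports citric acid cycle intermediates, was lower in co-exposed cells at 24 hr than after KBrO3 alone by 1.17 (adjusted p = 0.00492). After 24 hr of BPA alone Ucp2 differed from untreated cells by -2.01 ± 0.247 (SE), which met the Benjamini-Hochberg rule only. For Slc25a40, 1 untreated array stood at 9.10 and the lowest at -0.99, and no difference is given.

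Carrier precursors enter the inner membrane through the receptor Tomm70a, the pore subunit Tomm40, small chaperones of the intermembrane space and the translocase of Timm22. Of 10 genes of this import machinery, 5 were called higher and 0 lower at 4 hr after KBrO3, and 6 higher and 0 lower in co-exposed cells, with medians of 0.84 and 1.27. Of all genes tested 13.8% and 15.3% were called higher, with medians of 0.046 and 0.050. At 24 hr 5 and 8 of the 10 were called higher, against 7.09% and 9.49% of all genes, and 0 lower. Tomm70a was higher at 4 hr by 1.60 after KBrO3 and by 2.17 after co-exposure, and at 24 hr by 1.29 and 1.43, and Timm10 by 1.84 and 1.78 at 4 hr. Timm22 was not called, at -0.43 and -0.15. Among 13 other genes of mitochondrial solute transport, which include the voltage-dependent anion channels, the pyruvate carrier and the sideroflexins, 0 were called higher and 2 lower at 4 hr in each treatment, where 15.5% and 18% of all genes were called lower. Vdac1, the main channel of the outer membrane, differed by 0.006 after KBrO3 and -0.062 in co-exposed cells, while Sfxn3, a serine transporter family member, was lower by 0.99 and 1.49. Among 10 regulators of mitochondrial biogenesis, 4 were called higher and 1 lower at 4 hr after KBrO3, and 4 higher and 2 lower in co-exposed cells, beside those shares of all genes. Pprc1, a growth-induced coactivator, was higher by 1.48 and 1.70, and Tfb1m, a mitochondrial ribosomal RNA methyltransferase, was lower by 2.06 and 1.38.

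**Figure D5:**
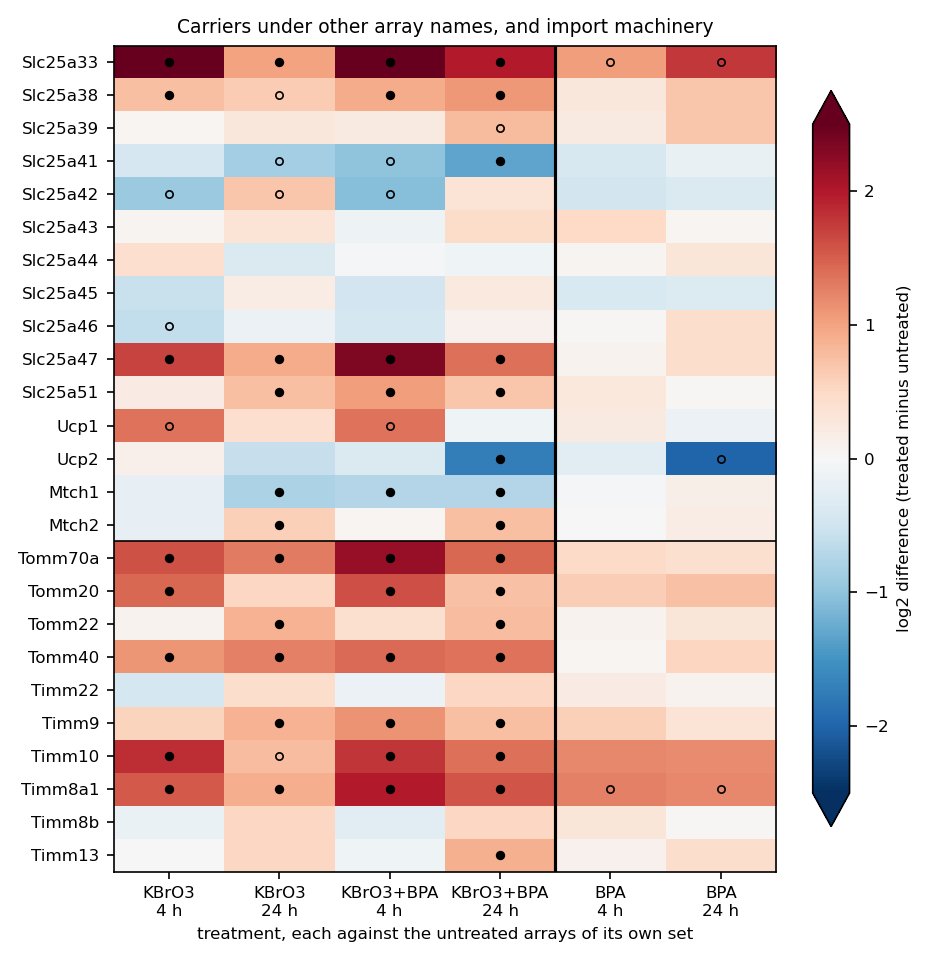
Log2 difference between treated and untreated arrays of the same set (columns) for carriers listed under other names on the array (above the horizontal line) and for the carrier import machinery (below it), with the colours and circles of the map of the SLC25 genes; Slc25a40 is not plotted. Slc25a33 and Slc25a47 are called higher in all 4 columns of the KBrO3 set, and no import gene is called lower.

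Arrays shared slides unevenly. Slide 2 of the KBrO3 set held 1 untreated array and the 3 arrays of KBrO3 at 4 hr; within it 28 of 30 members had the sign of the full comparison, all 13 called ones among them, with Slc25a25 at 2.30 and Slc25a27 at -2.55. The arrays of co-exposed cells and those at 24 hr after KBrO3 shared no slide with untreated arrays, so for those 3 comparisons an effect of the slide and one of the treatment cannot be told apart. The same holds for KBrO3 alone at 24 hr against 4 hr, for co-exposed cells against KBrO3 alone at 4 hr and for the difference of that comparison between times. Co-exposed cells at 24 hr and at 4 hr shared no slide and were linked only through the arrays of KBrO3 alone at 24 hr. With slide as a random block the calls of Slc25a35 against untreated cells at 4 hr were lost (limma, Bonferroni-adjusted p = 0.011 after KBrO3 and 0.0401 in co-exposed cells), as was that of Slc25a4 in co-exposed cells (adjusted p = 0.0197). Slide 4 held 2 arrays each of KBrO3 alone and co-exposure at 24 hr, and 26 of 30 members kept their sign within it. In the BPA set 23 of 31 members had the sign of the full comparison at 4 hr of BPA within slide 3. At 24 hr 21 of 31 had it within slide 2 and 28 of 31 within slide 4. All these within-slide differences reuse arrays of the full comparisons, so agreement in sign is favoured in advance and gives no separate support. The share over all genes was not computed.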

How the data were processed

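Total RNA of Ku70-/- MEFs was hybridized to 24 Agilent one-colour arrays, 15 in the KBrO3 set and 9 in the BPA set, with 3 biological replicates a group according to the methods. The authors deposited scanner output made with Agilent Feature Extraction 12.0 according to the submitters' processing notes, and the intensity column used here is its processed signal, which is background-subtracted on a linear scale. The deposited series table held the same intensity values (1080432 of 1080432 compared), and 0 columns of per-sample values belonged to no sample. Control spots and outlier spots were left out of 43379 non-control spots an array, log2 was taken, each array's 75th percentile was subtracted, and spots of a probe were averaged. The test took in a probe if 1 or more groups of the set had it well above background on all their arrays, which left 27298 and 31791 probes. Each set was fitted on its own, with all its groups, by limma 3.58.1 (lmFit and eBayes, two-sided) in R 4.3.3. For a call, p adjusted by Bonferroni over the probes of the fit had to lie below 0.01 and the fold beyond 1.5. The other call rule needs a Benjamini-Hochberg p below 0.05 and the same fold. Counts over genes use each gene's brightest probe over the 24 arrays. Values printed as at least N-fold apply where a group had no array well above background.

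The members and gene lists were chosen with earlier results of these data known. Members called in any of the 4 comparisons of the KBrO3 set with untreated cells were eligible for naming, and those with the largest differences among them are given array by array. One member enters the counts and is not reported here by name. Carriers under other array names were matched through RefSeq for 14 current symbols (11 by accession, 3 by synonym), of which 12 were tested in the KBrO3 set. The fit was tested on simulated data with known changes. Alternatives (scaling, background correction, filter, adjustment, probes, samples fitted, replicate and slide blocks, each array left out) are given in the closing section. Slide numbers come from the scanner files. Tables and figures were made with Python 3.11.15, pandas 2.3.3 and matplotlib 3.10.9. Proteins were not used here.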

Additional observations from a re-analysis of the deposited data

Results flagged for a closer look

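The change that came with adding BPA to KBrO3 differed between 24 hr and 4 hr for 2 of 30 members, by the test of that difference with Benjamini-Hochberg adjustment, where 28% of all genes were called. This test combines the comparisons of the treated groups with untreated cells, so it is not independent of the contrasts with which the members were put forward. At 4 hr the arrays of KBrO3 alone and those of co-exposed cells lay on different slides, so in this test the slide and the addition of BPA cannot be told apart. For Slc25a11, the oxoglutarate carrier, co-exposed cells stood 0.53 below cells given KBrO3 alone at 4 hr and 0.39 above them at 24 hr. The difference was 0.92 ± 0.115 (SE, limma, Benjamini-Hochberg-adjusted p = 5.54e-05, Bonferroni-adjusted p = 0.124, 3 arrays a group). No array of one group overlapped the other at either time, which held for 76.4% of all genes at 4 hr and 50% at 24 hr. For Slc25a32, the folate and flavin carrier, co-exposed cells stood 0.43 above at 4 hr and 0.27 below at 24 hr, a difference of -0.70 ± 0.135 (SE; limma, Benjamini-Hochberg-adjusted p = 0.00117, Bonferroni-adjusted p = 1), with overlapping arrays at 24 hr.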

How the results depend on the processing

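Over the alternatives, 56 calls of single members gave 863 values, of which 691 kept direction and call, 172 kept the direction without the call and 0 reversed. With normexp background correction the members called numbered 4 and 1 after KBrO3 at 4 and 24 hr, 4 and 0 in co-exposed cells, 0 for co-exposed cells against KBrO3 alone at 24 hr, and 3 and 5 between times after KBrO3 and in co-exposed cells; 17 of the 56 calls were kept. With the groups compared fitted alone the same 7 counts were 5, 0, 9, 0, 0, 2 and 4. With Benjamini-Hochberg adjustment 6 and 8 members were called at 24 hr after KBrO3 and in co-exposed cells, 1 after 4 hr of BPA, 2 and 2 for co-exposed cells against KBrO3 alone at 4 and 24 hr, 1 between times of BPA and 2 for the difference between times. Counting any probe of a gene gave 5 at 24 hr after KBrO3. In co-exposed cells at 24 hr, 5 were called without a fold limit, 6 with quantile normalization, 5 with probes above background on every array and 0 with slide as a random block, which left 6 between times after KBrO3. For co-exposed cells against KBrO3 alone, 1 was called at 4 hr without a fold limit and 1 with quantile normalization, and at 24 hr 0 with median scaling and 0 with slide as a fixed block, which left 7 between times in co-exposed cells. The cause of these differences was not tested. Apart from Benjamini-Hochberg adjustment, the share of all genes called was not computed for these alternatives or for leaving out arrays. Whether such changes in the number of calls are particular to the members is therefore not known.

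With quantile normalization the split of higher and lower calls was 6 and 8 at 4 hr after KBrO3, 5 and 1 in co-exposed cells at 24 hr, 8 and 4 between times after KBrO3 and 9 and 4 in co-exposed cells; with median scaling the last was 10 and 4. Median scaling moved the median of all genes by up to 0.46 (between times in co-exposed cells), and normexp correction by -0.25 at 24 hr after KBrO3. Leaving out each array in turn gave 10 to 15 and 2 to 4 calls after KBrO3 at 4 and 24 hr, 13 to 14 and 1 to 3 in co-exposed cells, 0 to 1 for co-exposed cells against KBrO3 alone at 24 hr, 9 to 11 and 10 to 14 between times after KBrO3 and in co-exposed cells, 0 to 1 for the difference between times (1 without the third co-exposed array at 24 hr), and 0 for the remaining comparisons. Same-numbered arrays of different groups had a mean correlation of -0.029 in the KBrO3 set (30 pairs, -0.21 to 0.11) and 0.0020 in the BPA set (9 pairs, -0.38 to 0.65, 3 of them over 0.1). Not every pair exceeded 0.1 and the labels name no shared source, so the numbers were not taken to pair the arrays, although some same-numbered arrays lay on one slide. With a replicate block the count for co-exposed cells against KBrO3 alone at 24 hr was 0 (Slc25a37, limma Bonferroni-adjusted p = 0.0321), and 49 of the 56 calls were kept. Slide as a fixed block could be fitted only where the groups compared are connected through shared slides. In the BPA set normexp correction used the median spot signal. Signal over background limits Slc25a18, Slc25a21, Slc25a23, Slc25a31, Slc25a34 and Slc25a35, whose values lie near background in 1 or more groups.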
